A study of Rattus norvegicus with 8 samples.

Results

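Molecular chaperones of the cytosol and of mitochondria were followed in primary nucleus pulposus cells, the cells of the gelatinous core of the rat intervertebral disc. The genes were taken by symbol from a list of 48 made up by family, and 47 of the 13613 genes in the deposited table carried a listed symbol. Hspa8 was not analysed here. The comparison was between 4 control libraries, from cells transduced with PLKO1, the control vector of the titles, and 4 libraries from cells transduced with a short hairpin RNA specific for TonEBP, a transcription factor that answers to salt and is the product of Nfat5. The cells came from explant cultures and were expanded before use. Both groups had 110 mM NaCl added for the last 8 h, so no library shows the chaperones without added salt. The titles number the libraries of each group as Sets 1 to 4, and libraries with the same number were paired. Nothing in the labels says whether the Sets came from separate animals, so p-values are limited to the spread in these samples. With the Set as a block, this is the spread of the differences within Sets.

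Chaperones bind proteins that are not folded and keep them from clumping. Hsp70 proteins do this with energy from ATP. Hsp40 proteins, also called J proteins, deliver clients to Hsp70 and speed up its ATP use, while the large Hsp110 proteins and the BAG proteins release its nucleotide so that it can let go. Hsp90 finishes the folding of kinases and receptors, and the ring complex CCT folds actin and tubulin. The Hsp60 and Hsp10 pair folds proteins inside mitochondria, and small heat shock proteins hold unfolded clients without using ATP. Many of these genes answer to the heat shock factor Hsf1. Salt stress is a further inducer in kidney cells, where an inducible Hsp70 gene is a known TonEBP target in the mouse, and where mouse Hspa4l was first found as an osmotic stress protein.

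The libraries held 9567488 to 15782202 reads over all genes of the table. Nfat5, the target of the hairpin, measured 1682, 2332, 1677 and 942 normalized counts in control libraries 1 to 4 and 1094, 872, 459 and 414 in knockdown libraries 1 to 4. Its knockdown library was below its control in every Set, and control library 4 held less than knockdown library 1. The log2 difference was -1.27 (SE 0.200, limma adjusted p = 0.0591), and the authors' deposited table has -1.12 with an adjusted p of 1.21e-05. The Sets differed in their muscle transcripts. The 6 skeletal muscle markers summed to 28026 and 8376 normalized counts in control libraries 1 and 2 but 145 and 77.3 in control libraries 3 and 4, and to 41419.8, 11061, 82.2 and 70.8 in knockdown libraries 1 to 4. They were led by the skeletal actin gene Acta1 and the myogenic factor Myog. Sets 1 and 2 held muscle transcripts that Sets 3 and 4 nearly lacked, in both groups. The groups were not level within Sets: the sum was higher in the knockdown library in Sets 1 and 2 and lower in Sets 3 and 4. Of the 13 nucleus pulposus and cartilage markers, 8 had a row. Over the libraries, Hif1a measured 3842 to 8551 normalized counts, Foxf1 154 to 262 and Krt8 77.1 to 865. Car3 ran from 23.2 in knockdown library 3 to 15939 in knockdown library 1, and Cd24 from 7.39 to 498. Krt18, Sox9 and Col2a1 were low, with at most 24.7, 29.2 and 8.76 in any library. The 6 macrophage and leukocyte markers with a row summed to between 539 and 759 in control and between 409 and 634 in knockdown libraries. Endothelial markers summed to at most 45.6, and no erythroid marker was analysed here. In bulk RNA, fewer cells of a type and less RNA per cell cannot be told apart.

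Across the chaperones, the 3 Hsp110 genes were called lower in the knockdown cells in the authors' deposited table and by DESeq2 with the Set as a block, Bag3 was the one BAG gene called higher, and Hsp90, CCT and the mitochondrial folding pair went down in some Sets and up in others. The authors' deposited table lists 4 chaperones as lower at an adjusted p under 0.05, namely Hsph1, Hspa4, Hspa4l and Hspb8, and 2 as higher, Bag3 and Dnajb5. That is 4 of 46 with an adjusted p (8.7%) against 5.22% of all genes for lower calls, and 2 of 46 (4.35%) against 4.09% for higher calls, so the share of higher calls was near the background. In either direction 6 were called (13%, background 9.31%). Limma on log2(normalized count + 1), with the Set as a block, passed 0 of 46 tested chaperones at an adjusted p under 0.05 and 0 of all 12383 genes tested (0%), as did edgeR with the block on the recovered reads. At an unadjusted p under 0.05 it held 10 lower chaperones (21.7%, background 12%) and 2 higher ones (4.35%, background 11.1%). DESeq2 on the recovered reads with the same block called the same 4 genes lower, against 5.45% of all genes, and the same 2 higher, against 4.31%. Bag3 was the one chaperone it called without the block.

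In direction, 31 of the 46 tested chaperones had a log2 difference below 0, with a median of -0.13, while 49.9% of all tested genes lay below 0 and their median was 0.00. The chaperone median was -0.08 without Set 1 and -0.05 without Set 4. Set 3 went the other way, with 27 of the 46 higher and a median of 0.10. Of the 46, 10 were lower in all 4 Sets (21.7%, background 16.2%): Hsph1, Hspa4, Hspb8, Dnaja1, Dnajb2, Dnaja3, Trap1, Cct7, St13 and Hsf2. Another 6 were higher in all 4 Sets (13%, background 17%): Bag1, Bag3, Bag4, Dnajb1, Dnajb5 and Hspa14. For 4 chaperones (8.7%, background 6.34%) no control value lay within the knockdown range or the reverse. Dnajb2 and Dnaja3 were on the lower side (4.35%, background 3.44%), and Bag3 and Dnajb5 on the higher side (4.35%, background 2.9%).

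**Figure D1:**
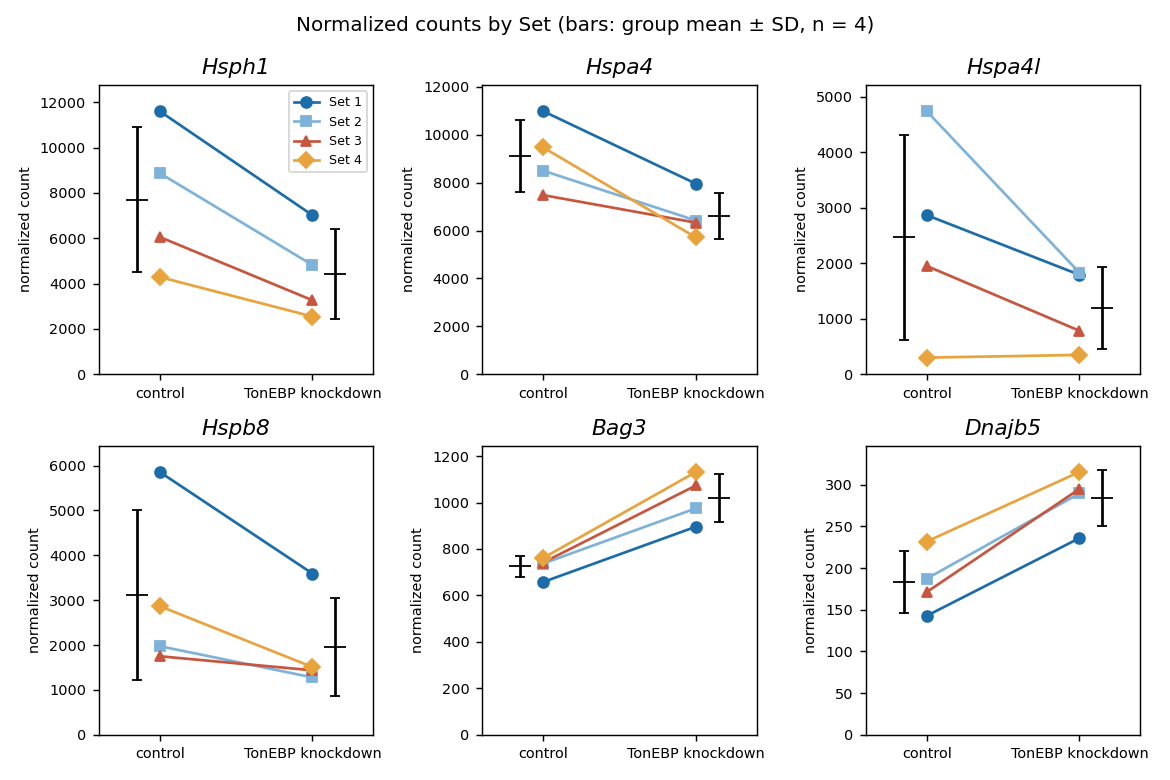
Normalized counts (vertical axes, starting at 0) of the 6 chaperone genes called in the authors' deposited table, in control and TonEBP knockdown libraries; each line joins the libraries of a Set and black bars give the group mean ± SD (n = 4). Hsph1, Hspa4 and Hspb8 slope down in all 4 Sets, Hspa4l in 3 of 4, and Bag3 and Dnajb5 slope up in all 4.

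Promoter sequences show how unevenly the heat shock element is spread over these genes. The element is a row of alternating GAA and TTC blocks, searched as GAANNTTC and TTCNNGAA. Each form is its own reverse complement, so both strands were covered, and the forms overlap wherever 3 blocks follow each other. RefSeq promoters of build GRCr8, from 250 bases before to 50 after the start site, were found for 40 of the 48 symbols, Hspa8 included. Either form was present in 19 of the 40 (47.5%), against 15.9% of 33469 rat promoters and 11.6% of those of tested genes. A row of 3 blocks was present in 7 (17.5%), against 0.798% and 0.436%: Hsph1, Dnaja1, Chordc1, Cct4, Hspa8, Hspd1 and Hspe1. The longer tonicity element TonE, bound by TonEBP, had a match in 8 of 40 (20%, against 5.98% and 3.42%), namely Hsph1, Hspe1, Dnaja1, Hspa2, Hspb1, Hspb7, Bag1 and Cct5. Its core TGGAAA alone, read on either strand, was present in 14 of 40 (35%, against 22.7% and 16.2%). The searches are not independent, and the TonE match of Hsph1 shares most of its letters with the row of 3 blocks. These matches are letters in a window and not measured binding. The sequences are those of 4 of the 6 genes called in the authors' deposited table, the ones with a heat shock element match, and Hspe1 as a gene with a row of blocks and no call. Capitals mark the matches to either form.
Hsph1 (chr12:10427118-10427417, plus strand): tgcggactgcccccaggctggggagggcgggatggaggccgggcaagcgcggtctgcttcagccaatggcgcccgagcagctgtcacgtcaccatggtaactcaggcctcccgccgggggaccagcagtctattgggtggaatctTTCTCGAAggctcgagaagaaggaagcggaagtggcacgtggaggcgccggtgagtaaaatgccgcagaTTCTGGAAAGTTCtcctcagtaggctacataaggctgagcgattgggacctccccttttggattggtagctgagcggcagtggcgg
Hspa4l (chr2:125668096-125668395, plus strand): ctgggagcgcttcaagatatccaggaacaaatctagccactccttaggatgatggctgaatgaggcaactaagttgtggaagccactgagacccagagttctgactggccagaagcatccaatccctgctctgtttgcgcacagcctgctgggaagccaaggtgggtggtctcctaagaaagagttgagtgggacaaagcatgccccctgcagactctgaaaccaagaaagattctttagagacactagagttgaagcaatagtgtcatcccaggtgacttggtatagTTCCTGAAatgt
Hspb8 (chr12:45837058-45837357, plus strand): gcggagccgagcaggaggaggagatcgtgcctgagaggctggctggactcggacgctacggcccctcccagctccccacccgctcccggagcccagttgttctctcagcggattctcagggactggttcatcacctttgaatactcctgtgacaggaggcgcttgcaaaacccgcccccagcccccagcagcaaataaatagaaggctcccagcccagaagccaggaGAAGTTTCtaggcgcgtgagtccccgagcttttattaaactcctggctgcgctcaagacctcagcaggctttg
Bag3 (chr1:192533210-192533509, plus strand): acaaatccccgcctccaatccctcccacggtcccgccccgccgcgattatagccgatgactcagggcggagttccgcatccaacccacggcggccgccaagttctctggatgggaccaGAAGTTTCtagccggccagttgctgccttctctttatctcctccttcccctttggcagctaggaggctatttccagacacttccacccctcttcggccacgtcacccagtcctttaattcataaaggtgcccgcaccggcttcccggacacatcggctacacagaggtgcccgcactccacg
Hspe1 (chr9:64084077-64084376, plus strand): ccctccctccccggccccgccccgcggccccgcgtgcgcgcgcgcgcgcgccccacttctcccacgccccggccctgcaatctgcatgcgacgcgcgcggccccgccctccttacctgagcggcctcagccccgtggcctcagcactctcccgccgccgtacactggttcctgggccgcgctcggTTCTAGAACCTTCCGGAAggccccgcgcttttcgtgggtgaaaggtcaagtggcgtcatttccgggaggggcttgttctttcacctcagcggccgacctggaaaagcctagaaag
The Hsph1 window held 3 matches in a pair of separate runs, and the run nearer the start site, 36 bases before it, is a row of 3 blocks. In the Hspe1 window 3 matches merge into a single run. Hspb8 and Bag3 held 1 match each, 23 and 132 bases before the start site, and the match of Hspa4l lay 39 bases after it. Hspa4 and Dnajb5 had no match in their windows. Among the measured genes with a row of blocks, Hsph1 and Dnaja1 were lower in all 4 Sets. Cct4, Chordc1, Hspd1 and Hspe1 went both ways between Sets. Each of these measured genes had a mean log2 difference below 0: -0.81 for Hsph1, -0.31 for Dnaja1, -0.29 for Chordc1, -0.13 for Hspe1, -0.10 for Hspd1 and -0.02 for Cct4. Of all 46 tested chaperones, these included, 31 (67.4%) lay below 0. Hspd1 and Hspe1 share their row of blocks, so they are not separate cases. A link between the blocks and these differences was not tested.

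The Hsp110 class, the nucleotide release factors of Hsp70, lay below 0 in all 3 genes. Its median log2 difference was -0.79, with Set medians of -0.68, -0.88, -0.89 and -0.73. Hsph1 (ENSRNOG00000000902), the heat-inducible member also called Hsp105, measured 11608, 8874, 6054 and 4286 normalized counts in control libraries 1 to 4 and 7018, 4818, 3262 and 2543 in knockdown libraries 1 to 4. The groups overlapped because the Sets started from different levels, yet each knockdown library held close to the same part of its own control. Within the Sets the log2 differences were -0.73, -0.88, -0.89 and -0.75, a narrow range for a gene whose control libraries differed 2.71-fold. Group means were 7706 ± 3215 and 4410.1 ± 1981 (SD, n = 4), which is 1.75-fold lower. The log2 difference was -0.81 (SE 0.110), and limma gave adjusted p-values of 0.0591 with the block and 0.553 without it. DESeq2 with the block gave 1.57e-08, and the authors' deposited table has it at log2 -0.78 with 3.20e-08 as the adjusted p. With any Set left out, the DESeq2 adjusted p of Hsph1 stayed under 0.05, from 8.15e-05 to 0.0103, and it was 0.272 with Sets 3 and 4 alone.

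Hspa4 (ENSRNOG00000016596), the constitutive member, measured 10986, 8499.7, 7479.9 and 9470.4 normalized counts in control libraries 1 to 4 and 7958, 6418, 6329 and 5712 in knockdown libraries 1 to 4. It was lower in all 4 Sets, and knockdown library 1 was the one library to reach into the control range. The means were 9109 ± 1492 and 6604 ± 956 (SD, n = 4), 1.38-fold lower, with a log2 difference of -0.46 (SE 0.132, limma adjusted p = 0.117). The authors' deposited table lists it at -0.44 with an adjusted p of 0.0287. In DESeq2 with the block its adjusted p was 0.0255, and the call was lost without Set 1 (0.161), Set 2 (0.311) or Set 4 (0.269).

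Hspa4l (ENSRNOG00000010819), the osmotic stress protein of mouse kidney, behaved differently in Set 4. Control libraries 1 to 4 measured 2868, 4742, 1951 and 298 normalized counts, and knockdown libraries 1 to 4 measured 1792, 1831, 782 and 346. Sets 1 to 3 were lower in the knockdown, by log2 differences of -0.68, -1.37 and -1.32, and Set 4, at a far lower level in both libraries, was slightly higher (0.22). Means were 2465 ± 1854 and 1188 ± 742 (SD, n = 4), and the log2 difference was -0.79 (SE 0.267, limma adjusted p = 0.153), or -1.12 without Set 4. The authors' deposited table lists it at -0.70 with an adjusted p of 0.0395. DESeq2 with the block gave 0.0489, and 9.22e-05 without Set 4, while the call was lost without Set 1 (0.114), Set 2 (0.456) or Set 3 (0.208).

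In the Hsp70 class 2 of the 3 genes tested, Hspa2, Hspa13 and Hspa14, lay below 0, and the class median was -0.03. Hspa8 was not analysed and Hspa1a was not tested, so these values do not tell whether cytosolic Hsp70 followed the Hsp110 genes. Hspa2 (ENSRNOG00000006472), a member best known from the testis, measured 1045, 1306, 1307 and 288 normalized counts in control libraries 1 to 4 and 801, 669, 475 and 433 in knockdown libraries 1 to 4. Its pattern over the Sets was that of Hspa4l, lower in Sets 1 to 3 (-0.38, -0.96 and -1.46) and higher in Set 4 (0.59), where the control library was again the lowest. The log2 difference was -0.55 (SE 0.313, limma adjusted p = 0.334), which became -0.25 without Set 3 and -0.94 without Set 4. DESeq2 with the block called it lower only when Set 4 was left out (0.0165 against 0.292 with all Sets). Hspa13, a microsomal Hsp70 relative, was close to level in every Set, with log2 differences from -0.12 to 0.10. Hspa14, which sits on ribosomes, was higher in all 4 Sets, by 0.09, 0.19, 0.14 and 0.80, with a limma adjusted p of 0.286. Hspa1a (ENSRNOG00000050647), an inducible Hsp70, had few reads: 13.1, 17.3, 7.39 and 3.87 normalized counts in control libraries 1 to 4 and 9.11, 12.98, 1.93 and 5.36 in knockdown libraries 1 to 4. It was left out of limma by the filter on low reads and has no adjusted p in the authors' deposited table. Its near-identical copy Hspa1b was not analysed here, and how the counting treated reads shared by the pair is not given in the sources used here, so the level of inducible Hsp70 is uncertain.

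Hsp90 went down in Sets 1 and 4 and up in Sets 2 and 3. Hsp90aa1 (ENSRNOG00000007219), the inducible cytosolic form, measured 5443, 2208, 2407 and 2519 normalized counts in control libraries 1 to 4 and 3690.1, 2288, 3757 and 1919.7 in knockdown libraries 1 to 4. Control library 1 stood far above the other controls, and the Set differences ran from -0.56 in Set 1 to 0.64 in Set 3. Its log2 difference of -0.06 (SE 0.206, limma adjusted p = 0.880) turned to 0.10 without Set 1 and to 0.04 without Set 4. Hsp90ab1 (ENSRNOG00000019834), the constitutive form, measured 18408, 10089, 10983 and 16333 in control and 17065, 11938, 14799 and 15692 in knockdown libraries 1 to 4. It showed the same order of Sets over a smaller span, from -0.11 in Set 1 to 0.43 in Set 3, with a log2 difference of 0.13 (SE 0.155, limma adjusted p = 0.664). These paralogs are similar in sequence, and how shared reads were counted is not given in the sources used here.

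**Figure D2:**
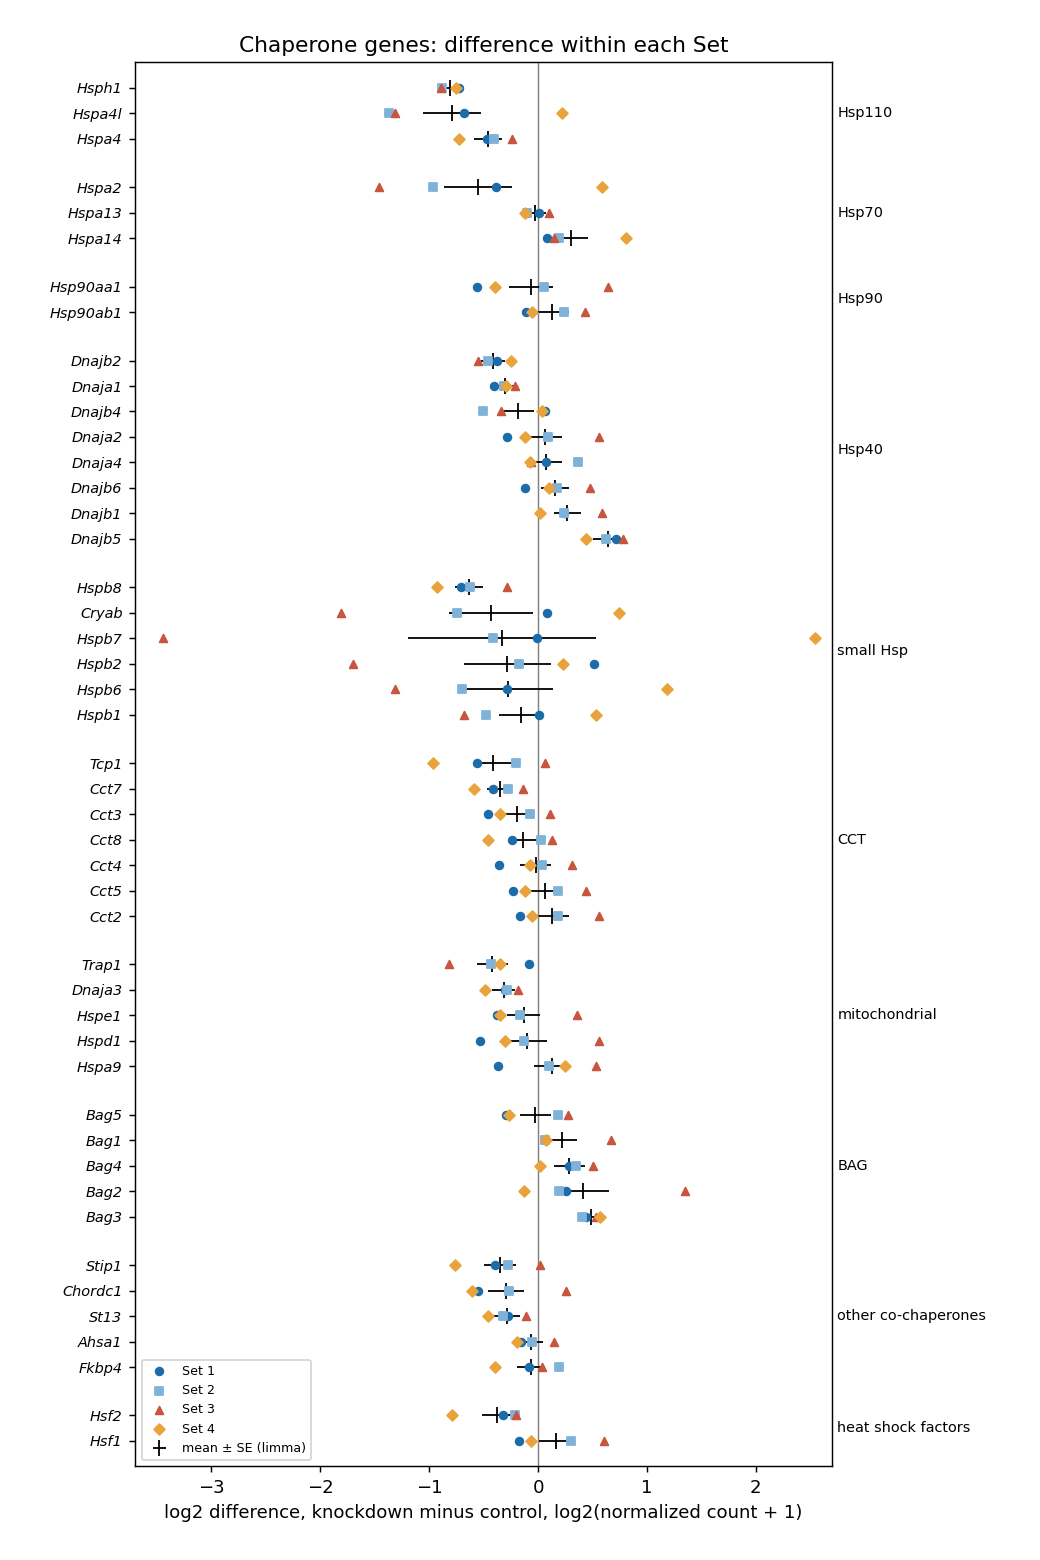
Log2 difference of knockdown minus control on log2(normalized count + 1) (horizontal axis) for the 46 tested chaperone genes (vertical axis, grouped by class), with a symbol for each Set and black bars for the limma mean ± SE. The 4 symbols of Hsph1 lie between -0.89 and -0.73, those of Hspb7 spread from -3.44 to 2.54, and the 7 CCT genes lie below 0 in Sets 1 and 4.

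Among the 8 Hsp40 genes, 3 were below 0 and 5 above, with a median of 0.07, and the members with 1 sign in all 4 Sets were split between both directions. Dnajb5 (ENSRNOG00000000130), a J protein of the heat shock family, measured 143, 187, 171 and 232 normalized counts in control libraries 1 to 4 and 236, 289.5, 295 and 315 in knockdown libraries 1 to 4. Every knockdown library lay above every control library, and the Set differences were 0.72, 0.63, 0.78 and 0.44. The means were 183 ± 37.2 and 284 ± 33.9 (SD, n = 4), 1.55 times the control, with a log2 difference of 0.64 (SE 0.137, limma adjusted p = 0.0821). In the authors' deposited table it stands at log2 0.60 with an adjusted p of 0.0101. DESeq2 with the block gave 0.0106, and the call was lost with any Set left out (0.0744 to 0.282).

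Dnajb2 (ENSRNOG00000019506), a J protein that hands clients to the proteasome and is best known from neurons, went the other way. It measured 671, 674, 766 and 779.8 normalized counts in control libraries 1 to 4 and 515, 491, 522 and 656 in knockdown libraries 1 to 4, without overlap. Its log2 difference was -0.41 (SE 0.111, limma adjusted p = 0.109), and its adjusted p is 0.0596 in the authors' deposited table. Dnaja1, the main cytosolic partner of Hsp70 in protein import and folding, was lower in all 4 Sets, by -0.40, -0.31, -0.21 and -0.29, with a limma adjusted p of 0.156. Dnajb1, the classical heat-inducible Hsp40, was higher in all 4 Sets, by 0.24, 0.24, 0.58 and 0.02, with a limma adjusted p of 0.255. Dnaja2, Dnaja4, Dnajb4 and Dnajb6 went both ways between Sets, with log2 differences from -0.19 for Dnajb4 to 0.16 for Dnajb6.

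The mean of the Set log2 differences lay below 0 for all 6 small heat shock protein genes (median -0.31), but their Set medians ran from -1.50 in Set 3 to 0.64 in Set 4, and the median turned to 0.05 without Set 3. Hspb8 (ENSRNOG00000022392), which works with Bag3 to send damaged proteins to autophagy, was the exception to this spread. It measured 5856, 1976, 1751 and 2867 normalized counts in control libraries 1 to 4 and 3594, 1279.8, 1438 and 1511 in knockdown libraries 1 to 4. Each knockdown library was below its own control, while library 1 was the highest in both groups. Means were 3113 ± 1892 and 1956 ± 1096 (SD, n = 4), with a log2 difference of -0.63 (SE 0.131, limma adjusted p = 0.0806). The authors' deposited table lists -0.60 with an adjusted p of 0.0041. DESeq2 with the block gave 0.00374, and the call was lost without Set 1 (0.0679), Set 2 (0.144) or Set 4 (0.0931). Its partner Bag3 was higher in the same Sets, as given with the BAG genes.

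Hspb1 (ENSRNOG00000023546), the widely expressed Hsp27, measured 4114, 2470.1, 1894 and 3022 normalized counts in control libraries 1 to 4 and 4145, 1775, 1186 and 4363 in knockdown libraries 1 to 4. It was level in Set 1, lower in Sets 2 and 3 and higher in Set 4 (0.01, -0.48, -0.68 and 0.53). Cryab (ENSRNOG00000010524), the alpha B crystallin of lens and muscle, which is also salt-inducible in kidney cells, measured 3391, 1789.8, 3054 and 1024 in control and 3599.8, 1067, 872 and 1714 in knockdown libraries 1 to 4. Its Set differences followed the same order, at 0.09, -0.75, -1.81 and 0.74. The log2 differences of Hspb1 (-0.15, SE 0.206, limma adjusted p = 0.693) and of Cryab (-0.43, SE 0.383, limma adjusted p = 0.535) both turned positive without Set 3, to 0.02 and 0.03.

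Hspb7 and Hspb2, known from heart and skeletal muscle, varied with the Set far more than with the hairpin. Hspb7 measured 331, 54.5, 9.86 and 1.93 normalized counts in control libraries 1 to 4 and 329, 40.6, 0 and 16.1 in knockdown libraries 1 to 4. Hspb2 measured 132, 65.1, 14.8 and 14.5 in control and 189.6, 57.6, 3.87 and 17.2 in knockdown libraries 1 to 4. The direction of Hspb2 depended on the scale: its mean count was higher in the knockdown, at 67.1 against 56.7, while its log2 difference was -0.28 with -1.70 in Set 3, and DESeq2 with no block gave 0.24. Both genes were highest in the libraries with the most muscle transcripts, those of Sets 1 and 2, and near their lowest values in Sets 3 and 4, where the 6 muscle markers summed to between 70.8 and 145. The control libraries of Hspb7 differed 171-fold, against a median of 1.79-fold over the tested chaperones and 1.81-fold over all tested genes. The part of muscle cells in these levels was not tested. Hspb2 and Cryab are neighbouring genes that overlap in the RefSeq annotation. Without stated use of strand, it is uncertain how reads from the stretch they share were assigned. Hspb6, a further muscle member, measured at most 70.4 normalized counts in any library, with log2 differences from -1.31 in Set 3 to 1.18 in Set 4.

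**Figure D3:**
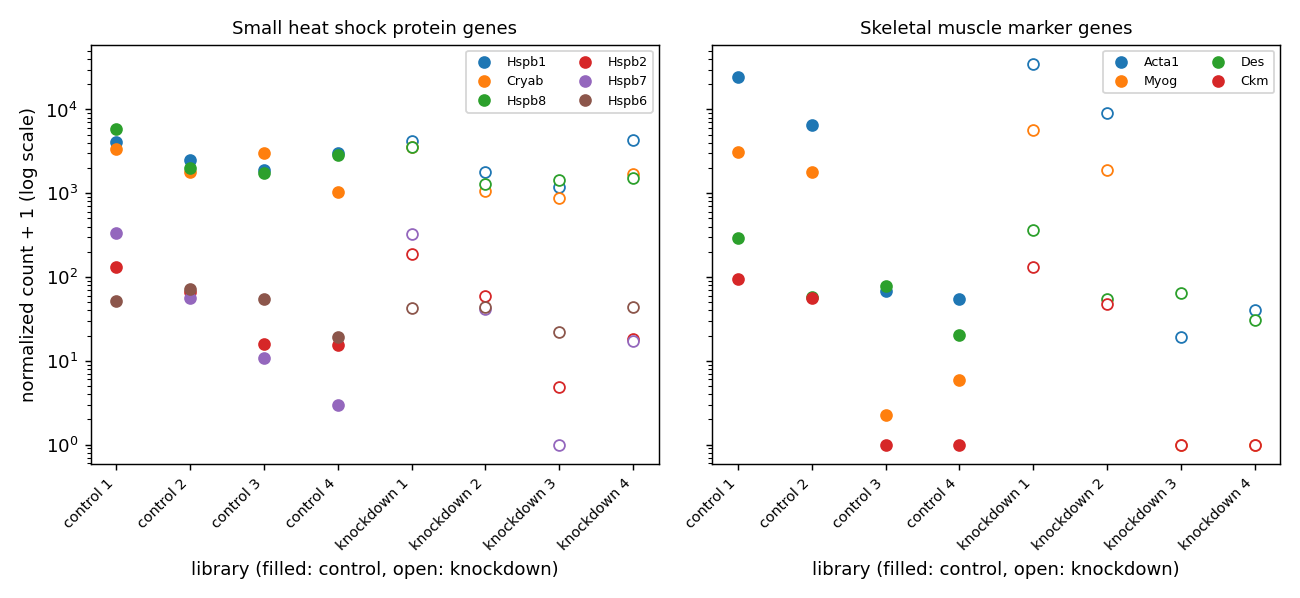
Normalized count + 1 on a log scale (vertical axes) in each library (horizontal axes; filled points control, open points knockdown) for the 6 small heat shock protein genes (left) and 4 skeletal muscle markers (right). Hspb7 goes from 331 in control library 1 to 1.93 in control library 4 beside Acta1 and Myog, whereas the lowest value of Hspb1, Cryab and Hspb8 is 872, for Cryab in knockdown library 3. Myog and Ckm are both at 0 in knockdown libraries 3 and 4, where their points coincide.

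CCT, a ring built from different subunits, was measured through 7 listed genes, whose signs were alike within most Sets but not between Sets. All 7 were below their control in Set 1 and in Set 4, with medians of -0.36 and -0.35, whereas 4 of 7 were above it in Set 2 (median 0.03) and 6 of 7 in Set 3 (median 0.13). The summed normalized counts of the 7 genes were 43256, 26967, 28978 and 35614 in control libraries 1 to 4 and 34408, 27468, 34684 and 29606 in knockdown libraries 1 to 4. The controls spanned a wider range than the knockdown libraries and enclosed them. Tcp1 (ENSRNOG00000014160), the alpha subunit, measured 1907, 1064, 1049 and 1585 in control and 1292, 927, 1096 and 812 in knockdown libraries 1 to 4, with a log2 difference of -0.42 (SE 0.178, limma adjusted p = 0.227). Cct7, the eta subunit, was the one member lower in all 4 Sets, by -0.41, -0.27, -0.14 and -0.59, with a limma adjusted p of 0.147. At the other end Cct2, the beta subunit, had a log2 difference of 0.13 and Set differences from -0.17 to 0.56. The zeta subunit gene Cct6a, which was not on the list of 48, measured 2338, 1378, 1264 and 1746 in control and 1398, 1046, 1101 and 755 in knockdown libraries 1 to 4. It was lower in all 4 Sets, and the authors' deposited table lists it as lower at log2 -0.57 with an adjusted p of 0.0373.

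Of the mitochondrial chaperones, 4 of 5 lay below 0 (median -0.13), and 2 of the 5, Dnaja3 and Trap1, were lower in all 4 Sets. Hspd1 (ENSRNOG00000014525), which encodes Hsp60, measured 2166, 975, 770.2 and 1225 normalized counts in control libraries 1 to 4 and 1501, 891, 1132 and 991 in knockdown libraries 1 to 4. Its partner Hspe1 (ENSRNOG00000014868), which encodes Hsp10, measured 2042, 915, 654 and 965 in control and 1576, 814, 841 and 756 in knockdown libraries 1 to 4. The pair lies head to head in the genome, and their promoter windows share 211 bases, with the row of blocks printed above inside both. Their differences had the same sign in every Set, with -0.53, -0.13, 0.56 and -0.31 for Hspd1 and -0.37, -0.17, 0.36 and -0.35 for Hspe1. Neither mean difference was large beside its error (-0.10, SE 0.185, limma adjusted p = 0.776 for Hspd1, and -0.13, SE 0.151, limma adjusted p = 0.634 for Hspe1), and that of Hspd1 turned to 0.04 without Set 1.

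Dnaja3 (ENSRNOG00000003855), the mitochondrial J protein, measured 1069, 873, 896 and 956 normalized counts in control libraries 1 to 4 and 864, 715, 786 and 682 in knockdown libraries 1 to 4, so that the groups did not overlap. Its log2 difference was -0.32 (SE 0.107, limma adjusted p = 0.152), with an adjusted p of 0.158 in the authors' deposited table. Trap1 (ENSRNOG00000005418), the mitochondrial Hsp90, measured 1003, 892, 1025 and 1280.3 in control and 949.6, 659, 580.2 and 1005 in knockdown libraries 1 to 4. Its Set differences were all below 0 but uneven, at -0.08, -0.44, -0.82 and -0.35, with a log2 difference of -0.42 (SE 0.142, limma adjusted p = 0.152). Hspa9, the mitochondrial Hsp70 also called mortalin, was lower in Set 1 (-0.37) and higher in the other Sets (0.10, 0.53 and 0.24).

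BAG genes, whose products bind the ATPase part of Hsp70, were the class on the higher side, with 4 of 5 members above 0 and a median of 0.29, which was 0.11 without Set 3. The Set 4 median was 0.02. Bag3 (ENSRNOG00000020298), the stress-inducible member that pairs with Hspb8, measured 658, 737, 742 and 761 normalized counts in control libraries 1 to 4 and 896, 975, 1073 and 1131 in knockdown libraries 1 to 4. Both groups were tight and did not overlap, and the Set differences were 0.44, 0.40, 0.53 and 0.57. Means were 725 ± 45.7 and 1019 ± 104 (SD, n = 4), 1.41 times the control, with a log2 difference of 0.49 (SE 0.102, limma adjusted p = 0.0810). The authors' deposited table lists 0.47 with an adjusted p of 0.00906, and DESeq2 gave 0.0083 with the block and 0.0359 without it. With any Set left out, DESeq2 with the block no longer called it (0.0953 to 0.252).

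The other BAG genes did not pass in any of these tests. Bag4, which holds back death receptor signals, was higher in all 4 Sets (0.28, 0.35, 0.50 and 0.02), and so was Bag1 (0.06, 0.06, 0.67 and 0.08). Bag2, an inhibitor of the ubiquitin ligase CHIP, was higher mainly in Set 3 (0.26, 0.19, 1.35 and -0.13). Bag5 was close to level on average, at a log2 difference of -0.02.

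Co-chaperones that link Hsp70 to Hsp90 or tune Hsp90 lay below 0 in 5 of 5 cases, at a median of -0.29 with Set medians of -0.28, -0.26, 0.04 and -0.46. Stip1 (ENSRNOG00000021164), the Hop protein that bridges both chaperones, measured 5897, 3677, 3040.0 and 3679 normalized counts in control libraries 1 to 4 and 4494, 3038, 3087 and 2166 in knockdown libraries 1 to 4. It was lower in Sets 1, 2 and 4 and level in Set 3, with a log2 difference of -0.35 (SE 0.148, limma adjusted p = 0.220). St13, the Hsp70 interacting protein Hip, was lower in all 4 Sets (-0.28, -0.32, -0.11 and -0.46), and Chordc1, an Hsp90 partner, in 3 of 4. Ahsa1, which activates the Hsp90 ATPase, and the Hsp90 immunophilin Fkbp4 had log2 differences of -0.07 and -0.06.

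Of the heat shock factors, Hsf1 (ENSRNOG00000021732), an activator of many of these genes, measured 509, 403, 372 and 501 normalized counts in control libraries 1 to 4. In knockdown libraries 1 to 4 it measured 449.6, 498, 567 and 478. Its Set differences (-0.18, 0.31, 0.61 and -0.07) had the signs of those of Hsp90ab1, and the log2 difference was 0.17 (SE 0.162, limma adjusted p = 0.575). Hsf2 (ENSRNOG00000000808), the relative with roles in development, measured 1123, 813, 612 and 557 in control and 898, 703, 532 and 322 in knockdown libraries 1 to 4. It was lower in all 4 Sets with a log2 difference of -0.38 (SE 0.138, limma adjusted p = 0.172). Messenger levels of the factors do not report their activity, which is set after translation.

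Set 1 stood apart in the level of the listed chaperones as well as in its muscle transcripts. Control library 1 was the highest of the 4 controls for 31 of the 46 tested chaperones (67.4%), against 30.5% of all tested genes. For the remaining chaperone and co-chaperone genes, the list given below, it was the highest for 25 of 65 (38.5%), nearer the background. The summed normalized counts of the listed chaperones were 157000.3 in control library 1 and 104367, 98945 and 111729.6 in control libraries 2 to 4. Knockdown library 1 was also the highest of its group, at 126555 against 93893, 106418 and 95593. The order of the Sets was not that of the muscle markers throughout, since the Set with the second most muscle transcripts, Set 2, was not second in either group. The part of the muscle cells in this level was not tested.

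**Figure D4:**
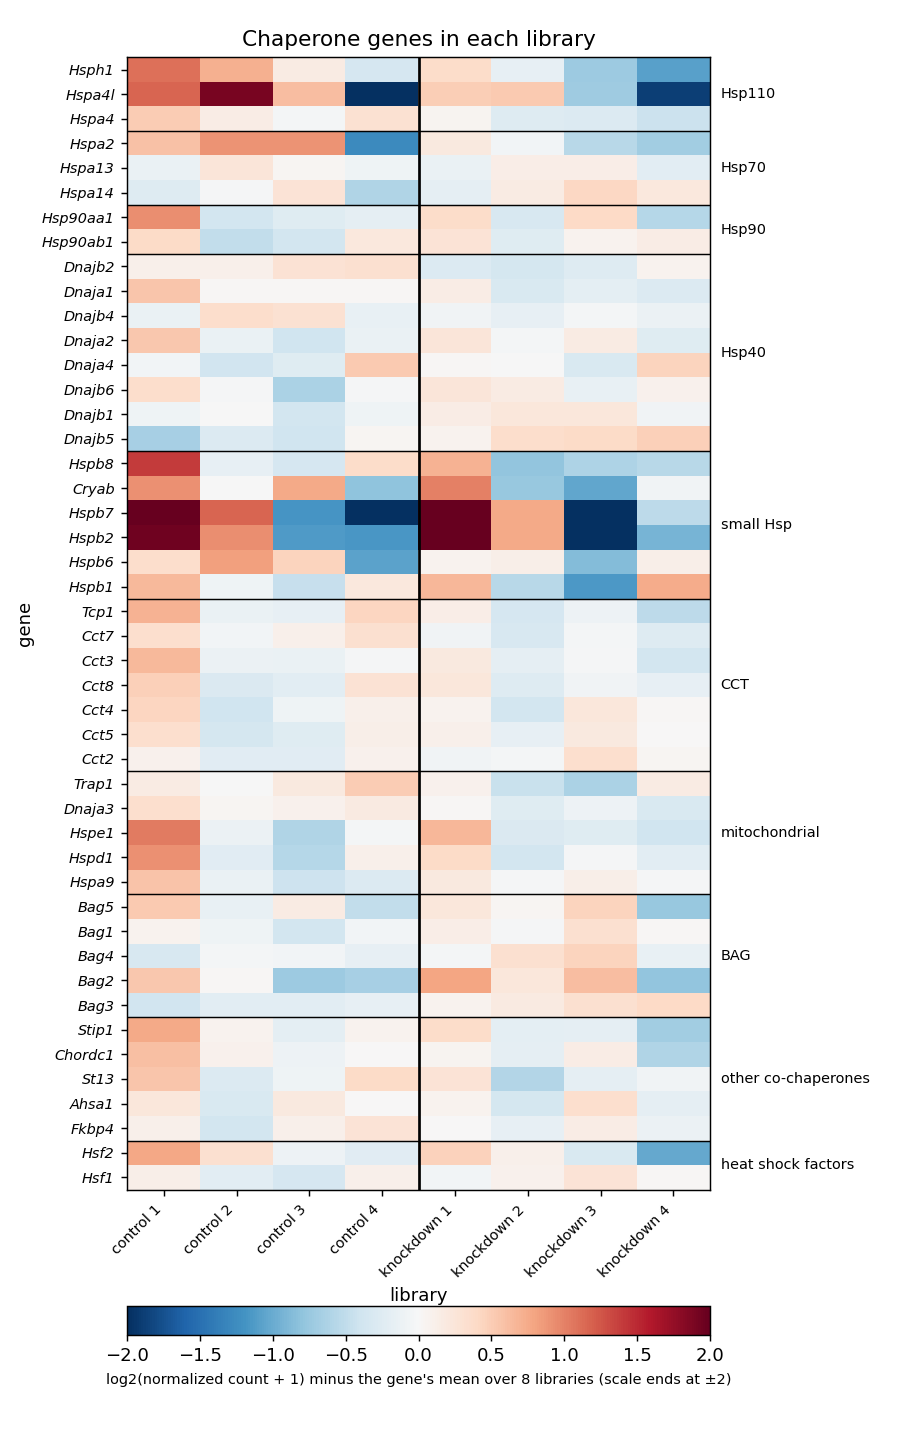
Log2(normalized count + 1) of the 46 tested chaperone genes (vertical axis, grouped by class) in the 8 libraries (horizontal axis, control left of the black line), as the difference from the gene's mean over all libraries, with the colour scale ending at ±2. Control library 1 is red for most genes, and Bag3 is blue in the 4 control libraries and red in the 4 knockdown libraries.

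The remaining chaperone and co-chaperone genes, a list of 72 names with 67 rows, of which 65 were tested, had 39 members below 0 and a median of -0.10. Lower calls in the authors' deposited table numbered 4 of 65 (6.15%, background 5.22%) and higher calls 0 (background 4.09%). Limma with the block passed 0 of them, and at an unadjusted p under 0.05 it held 9 lower (13.8%, background 12%) and 1 higher (1.54%, background 11.1%). DESeq2 with the block called the same 4 lower and 0 higher. Besides Cct6a these were Hsbp1, Clpp and Timm44. Hsbp1, which encodes a small protein that binds heat shock factor trimers and damps Hsf1, measured 1810.1, 1943, 2034 and 1972 normalized counts in control libraries 1 to 4 and 1484, 1260.3, 927 and 934 in knockdown libraries 1 to 4. Its groups did not overlap, and it was lower by 0.78 on the log2 scale (SE 0.165, limma adjusted p = 0.0818), with -0.71 and an adjusted p of 0.00402 in the authors' deposited table. Clpp, the mitochondrial matrix protease subunit, measured 356, 275, 259 and 429 in control and 224, 206, 205 and 239 in knockdown libraries 1 to 4. Timm44, which tethers mitochondrial Hsp70 to the import channel, measured 611, 605, 656 and 838 in control and 529.9, 394, 362 and 601 in knockdown libraries 1 to 4. Neither gene had overlapping groups, and the authors' deposited table gives them log2 fold changes of -0.53 and -0.50. Groups did not overlap for 4 of the 65 tested genes of this list (6.15%), near the background of 6.34% in either direction. All 4 were on the lower side (background 3.44%) and 0 on the higher side (background 2.9%), and Dnajc14 was the remaining one.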

How the data were processed

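RNA-seq was measured in 8 libraries of primary rat nucleus pulposus cells, 4 per group. The submitters' processing notes name Novoalign 2.08.01, DESeq2 1.10.1 and the rn5 build; for the counting tool, annotation, strand setting and shared reads, nothing was found in the sources used here. The authors deposited one table with normalized counts per gene and library (a signal, not raw counts), log2 fold changes and adjusted p-values, per the file headers. No gene in it has under 13 reads in all.

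The deposited normalized counts came back as whole reads for 100% of values within 0.001 reads. Limma 3.58.1 with a mean-variance trend was run in R 4.3.3 on log2(normalized count + 1), with the Set as a block, over the 12383 genes kept by filterByExpr in edgeR 4.0.16, two-sided with Benjamini-Hochberg adjustment. Folds on this scale understate changes of low genes. DESeq2 1.42.0 and edgeR on the recovered reads, limma-voom, other scalings, pseudocounts of 0.5 and 5, other filters and fits without each Set were alternatives. Scripts were tested on simulated data. The Set numbers of the titles were used as pairs. Deviations from the group means of same-Set libraries correlated at 0.681 to 0.805 across genes, above every other pairing (at most 0.333). Deviations are centred within each group, so a high correlation of same-Set libraries itself lowers that of the other pairings. The correlation did not decide the pairing.

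Members, classes and lists were chosen with earlier results of these data known. Full values were given for genes called in the authors' deposited table, genes whose groups did not overlap, the gene with the largest absolute log2 difference of each class, and Hspa1a, Hsp90aa1, Hsp90ab1, Hspb1, Cryab, Hspd1, Hspe1, Tcp1 and Hsf1. The promoters are from RefSeq on GRCr8, and no coordinates of the older build were mixed with them. Figures were drawn with matplotlib 3.10.9.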

Additional observations from a re-analysis of the deposited data

Results flagged for a closer look

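In groups of 4 values, the gap between an extreme value and its neighbour was divided by the whole range and set against Dixon's critical value. Of 141 groups checked, 10 passed, where chance gives about 1 in 20. Control library 1 stood above the other controls for Hsp90aa1 (5443 normalized counts against 2208 to 2519), Dnaja1 (5883 against 4047 to 4056), Cct3 (9694 against 5622 to 6103) and Hspb7 (331 against 1.93 to 54.5). Knockdown library 1 stood above the other knockdown libraries for Hspb7 (329 against 0 to 40.6), Hspb8 (3594 against 1279.8 to 1511) and Hspe1 (1576 against 756 to 841). Hspb6 was low in knockdown library 3, at 21.3 normalized counts against 41.4 to 43.0. Among log2 differences within a Set, that of Hspa14 in Set 4 was 0.80 against 0.09 to 0.19 in the other Sets. That of Bag1 in Set 3 was 0.67 against 0.06 to 0.08.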

How the results depend on the processing

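The tool and the block set the number of calls. With limma and no replicate block 1 gene of all passed as lower and 0 as higher, and with limma-voom 7 and 7. DESeq2 with the replicate block called 656 lower and 518 higher, and 95 and 68 with no replicate block. Among the listed chaperones DESeq2 called 4 lower and 2 higher with the block, and 0 and 1 without it. Among the other chaperone genes it called 4 lower with the block and 1, Hsbp1, without it. The remaining settings, chosen after seeing the data, left out a Set from DESeq2 with the block. Without Set 1, 2, 3 or 4, lower calls over all genes were 571, 187, 347 and 255 and higher calls 313, 106, 317 and 202. In the same order, lower calls were 1, 1, 3 and 3 over the listed chaperones and 1, 0, 2 and 0 over the other chaperone genes. Higher calls were 0 over both lists in each of these fits. The lowest counts over all genes came without Set 2. With Sets 3 and 4 alone DESeq2 called 203 lower and 78 higher over all genes, and 0 in either direction over both lists.

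Directions turned for 5 named genes, none of them called. Leaving out a Set in limma gave -0.30 to 0.10 for Hsp90aa1 (0.044 without Set 4), -0.82 to 0.028 for Cryab, -0.38 to 0.021 for Hspb1 and -0.32 to 0.040 for Hspd1. In DESeq2 the turned values were 0.097 and 0.048 for Hsp90aa1 and 0.028, 0.021 and 0.035 for Cryab, Hspb1 and Hspd1. With Sets 3 and 4 alone, limma and DESeq2 gave 0.13 and 0.12 for Hsp90aa1 and 0.12 and 0.12 for Hspd1, and limma gave 0.0050 for Hspe1. The cause was not tested. The Hsp110 median ran from -0.83 to -0.59 with a Set left out. Low read numbers limit Hspa1a, Hspb2, Hspb6 and Hspb7.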
